A study of Mus musculus with 11 samples.

Results

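Expression of 46 genes of the cell cycle and of DNA replication was followed in dermal fibroblasts from unwounded mouse back skin and from excisional wounds. The genes were chosen by symbol from a written list, with no threshold on their values. They are Mki67 and Top2a, both used as proliferation markers, 22 genes of mitosis, 14 genes of DNA replication, 3 cyclins of G1 and S phase, 3 transcription factors and 2 inhibitors of cyclin-dependent kinases. All 46 symbols were found among the 47643 in the table, and 41 of them passed the filter on low values, which asked for 1 RPKM or more in 2 or more libraries. The other 5, Cdc6, Cenpf, Ccne2, Mybl2 and Cdkn2a, stayed below it.

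A cell that enters the cycle passes from G1, where D-type and E-type cyclins with their kinases release E2F factors from RB proteins, into S phase, where the MCM helicase licensed at origins unwinds the DNA, the PCNA clamp holds the polymerases, and ribonucleotide reductase, thymidine kinase and thymidylate synthase supply nucleotides. In G2 and mitosis, cyclins A and B with Cdk1, the Polo and Aurora kinases and the spindle checkpoint order chromosome segregation, and the anaphase-promoting complex then destroys cyclin B. Many S phase genes are switched on through E2F. Many mitotic genes are held off in resting cells by the DREAM complex and switched on by B-Myb and Foxm1, at promoter elements called CHR and CCAAT. Dermal fibroblasts of adult skin rarely divide, and fibroblasts at a wound proliferate while granulation tissue forms.

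The fibroblasts were sorted by flow cytometry from normal back skin (NS) or from wounds taken on day 5 (5dw). They were live CD45-negative and CD140a-positive cells, with CD11b and F4/80 as further negative markers. The sample labels add CD3 to the negative markers, whereas the methods of the study do not name it. The mice were females of 9 to 12 weeks on a mixed background, 50% CD-1 and 50% C57Bl/6. Act mice carry an INHBA transgene under the keratin 14 promoter, which is active in keratinocytes and not in fibroblasts, and WT mice are their littermates without it. Every library was made from RNA of 3 pooled animals, by poly-A enrichment, and WT NS, Act NS and WT 5dw had 3 libraries each and Act 5dw had 2 (numbered 1 and 3, because the authors left out number 2 after quality control). Less RNA went into the NS libraries than into the 5dw libraries, a difference that cannot be told apart from that between the tissues. Levels are given as RPKM, that is, reads per transcript length and sequencing depth, and differences (log2FC) are on the scale log2(RPKM + 0.5), which understates the change of genes near or under 1 RPKM. Comparisons were made with limma on all genes that passed the filter, and a gene was called at an adjusted p under 0.05.

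Promoter sequences from RefSeq (GRCm38.p6) were available for 36 of the 46 genes, as windows of 300 bases that run from 250 bases before the annotated start to 50 bases after it. Those of 4 mitotic genes and 2 helicase genes that rose in wounds are printed here because they show the elements that the mitotic and the replication genes do and do not share. Each is given 5′ to 3′ on the strand of its gene, and capitals mark every match to a searched element on either strand.
Cdk1, chr10:69352863-69353162, minus strand: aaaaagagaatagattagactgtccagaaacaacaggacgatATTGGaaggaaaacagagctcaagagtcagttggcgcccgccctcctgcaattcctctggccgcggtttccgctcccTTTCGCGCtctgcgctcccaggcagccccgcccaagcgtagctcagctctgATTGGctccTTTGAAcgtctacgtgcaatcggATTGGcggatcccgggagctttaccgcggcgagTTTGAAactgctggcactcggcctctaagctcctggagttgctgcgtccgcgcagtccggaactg
Ccnb2, chr9:70421505-70421804, minus strand: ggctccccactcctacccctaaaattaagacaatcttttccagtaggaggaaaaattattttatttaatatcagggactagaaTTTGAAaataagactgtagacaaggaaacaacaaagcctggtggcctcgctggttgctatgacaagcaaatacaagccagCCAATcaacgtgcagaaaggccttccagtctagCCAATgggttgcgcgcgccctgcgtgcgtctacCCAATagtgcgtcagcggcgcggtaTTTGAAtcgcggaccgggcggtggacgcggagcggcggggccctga
Cdc20, chr4:118437294-118437593, minus strand: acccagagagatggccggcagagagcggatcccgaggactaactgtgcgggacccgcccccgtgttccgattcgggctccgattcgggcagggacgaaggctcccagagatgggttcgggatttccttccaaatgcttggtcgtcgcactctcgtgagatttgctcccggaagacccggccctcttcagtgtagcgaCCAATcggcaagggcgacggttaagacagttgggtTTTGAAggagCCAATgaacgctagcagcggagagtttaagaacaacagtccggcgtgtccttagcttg
Ube2c, chr2:164769679-164769978, plus strand: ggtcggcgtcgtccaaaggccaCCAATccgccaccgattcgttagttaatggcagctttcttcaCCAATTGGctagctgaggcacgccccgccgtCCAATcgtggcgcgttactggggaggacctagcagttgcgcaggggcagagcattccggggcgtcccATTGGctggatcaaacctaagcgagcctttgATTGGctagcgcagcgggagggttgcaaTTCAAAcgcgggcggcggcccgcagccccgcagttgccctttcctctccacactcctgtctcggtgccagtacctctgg
Mcm5, chr8:75109259-75109558, plus strand: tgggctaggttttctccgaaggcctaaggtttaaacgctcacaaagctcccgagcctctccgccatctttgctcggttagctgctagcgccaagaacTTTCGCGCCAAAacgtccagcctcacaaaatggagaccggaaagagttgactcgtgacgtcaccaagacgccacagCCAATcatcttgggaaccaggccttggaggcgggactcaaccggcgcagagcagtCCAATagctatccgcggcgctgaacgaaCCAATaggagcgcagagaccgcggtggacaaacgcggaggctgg
Mcm6, chr1:128359656-128359955, minus strand: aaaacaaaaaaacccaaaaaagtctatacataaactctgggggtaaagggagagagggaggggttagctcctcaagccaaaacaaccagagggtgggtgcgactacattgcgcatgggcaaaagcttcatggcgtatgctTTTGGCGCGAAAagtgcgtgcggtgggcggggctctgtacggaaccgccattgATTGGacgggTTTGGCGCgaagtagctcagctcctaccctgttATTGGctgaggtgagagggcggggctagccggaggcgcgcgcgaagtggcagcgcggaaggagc
The cell cycle homology region, CHR, was searched as TTTGAA and, in a variant form, as TTCGAA. The second element was the letters CCAAT themselves, and the third an E2F site, searched as TTTCCCGC, TTTCGCGC, TTTGCCGC or TTTGGCGC, each on both strands. In Cdk1 the CHR match nearest to the start lay 15 to 10 bases before it, in Cdc20 18 to 13 bases and in Ube2c 29 to 24 bases before it, and in Ccnb2 it lay 4 to 9 bases after it. Mcm5 and Mcm6 each held a pair of E2F matches on opposite strands that overlapped in 4 bases and read as 1 run of capitals, and Mcm6 held another nearer to its start.

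Of the 19 mitotic genes with a promoter (Mki67 and Top2a included), 15 held CHR (78.9%), 17 held CCAAT (89.5%) and 15 held both (78.9%), compared with 21.7%, 41.1% and 8.61% of 27025 genes of the table with a promoter. Ccnb1 and Cenpe held CCAAT without CHR, and Birc5 and Nusap1 held no match to either. An E2F match was found in 1 of these 19 genes, Cdk1 (5.26%), and in 6 of 12 replication genes (50.0%), namely Mcm3, Mcm5, Mcm6, Mcm7, Cdc6 and Cdt1, compared with 2.60% of all genes. CHR was found in 2 of the 12 replication genes (16.7%), Mcm2 and Mcm7, and CCAAT in 8 (66.7%). Of the 5 other genes with a promoter, Cdkn2a alone held an E2F match and none held CHR. A match describes the letters only, and binding was not measured.

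The label of the cells was checked first. All 12 fibroblast markers were present in every library, with a summed level of 14100 to 19900 RPKM in NS and 24900 to 28200 in 5dw, and Pdgfra averaged 55.9 RPKM in NS and 34.2 in 5dw. Ptprc, which encodes CD45, averaged 0.027 and 0.0246 RPKM. The summed level of 14 keratinocyte markers was 1270 to 4670 RPKM in NS and 157 to 1390 in 5dw, and those of endothelial and neutrophil markers were 6.32 to 11.5 and 0.243 to 1.10 in NS and 16.6 to 18.8 and 2.80 to 21.4 in 5dw. T cell markers summed to 4.80 to 39.4 in NS and 58.1 to 106 in 5dw, most of it Cd3e (12.5 and 74.1 RPKM on average), whereas Trbc2 averaged 4.66 and 0.587 and the other 4 at most 0.48, while Schwann cell markers went from 4.80 to 10.1 down to 0.705 to 0.969. These values move with the tissue, as the genes below do, and their part in the results was not tested. The NS libraries numbered 1, of WT and of Act, stood apart from the other libraries on the second principal component (22.4 and 35.7 against -18 to 1.77). In bulk RNA, more cells of a type and more RNA per cell cannot be told apart.

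**Figure D1:**
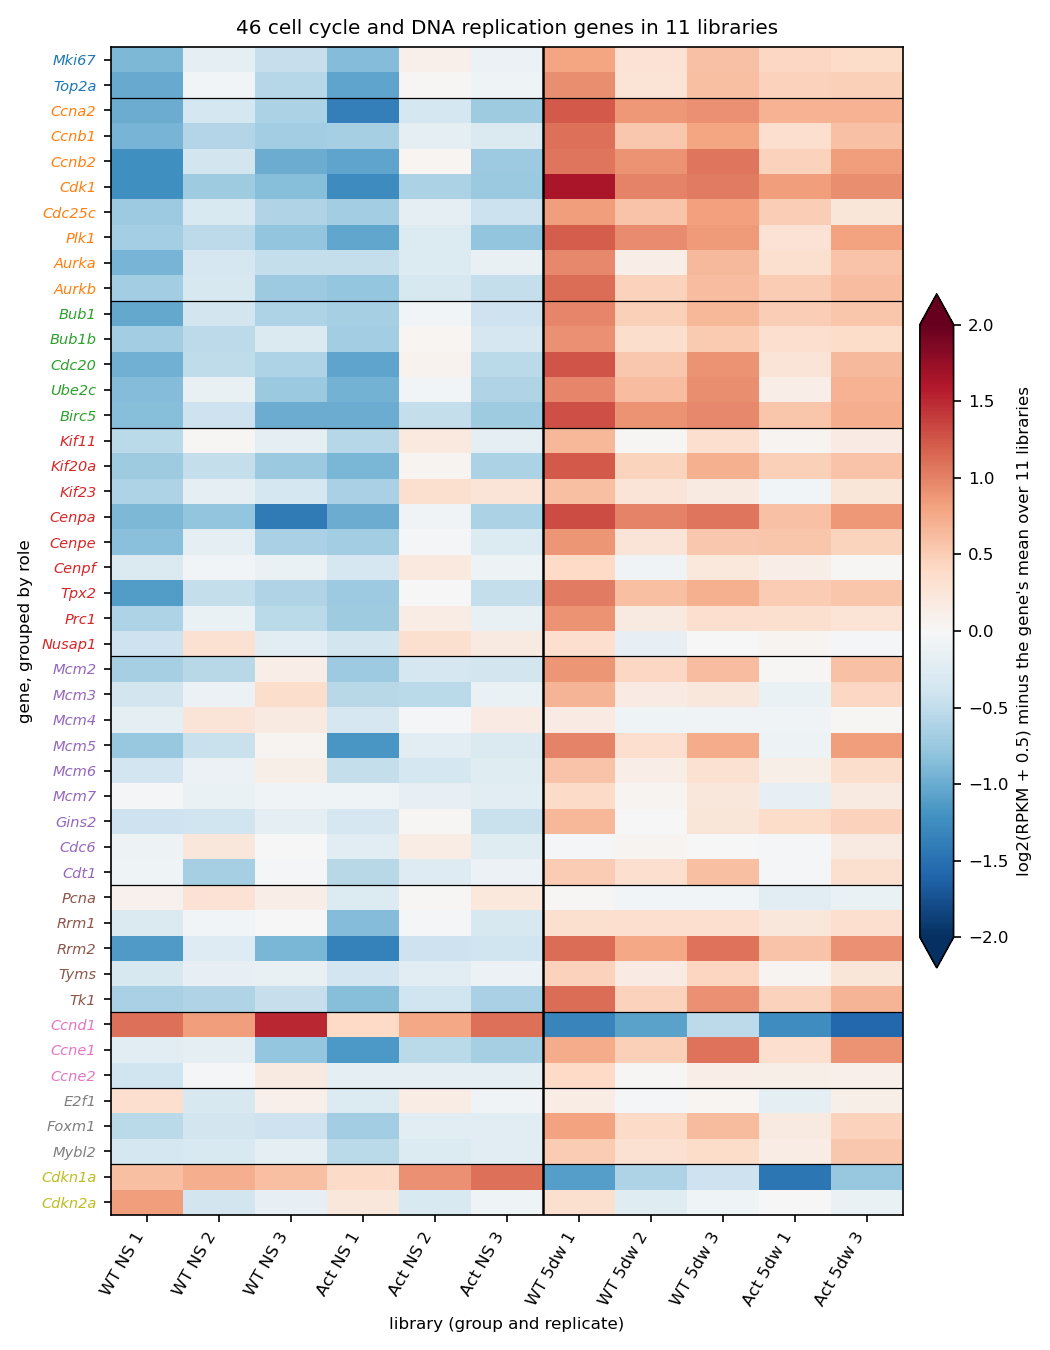
Level of the 46 genes in each of the 11 libraries, as log2(RPKM + 0.5) relative to the mean of that gene over all libraries, with genes in rows by role and libraries in columns by group. Most mitotic genes form a block that is low in all 6 NS libraries and high in all 5 of 5dw, except Kif11, Kif23, Cenpf and Nusap1, which overlap, whereas Ccnd1 and Cdkn1a show the opposite and helicase genes differ less than most mitotic genes.

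Most mitotic transcripts were scarce in unwounded skin and more abundant in WT wounds, Cdk1 for example at a mean of 0.799 ± 0.234 RPKM (SD, n = 3) in WT NS and 5.33 ± 1.5 (SD, n = 3) in WT 5dw, whereas helicase transcripts differed less and the clamp gene Pcna and E2f1 were not called. In WT mice, 30 of the 46 genes were higher in 5dw than in NS and 2 were lower, Ccnd1 and Cdkn1a, when all 26465 genes with a value above 0 were fitted. Among all those genes, 5.67% were called higher and 24.9% lower. With the filter on low values, 32 of the 41 genes that passed were higher and the same 2 were lower, against 9.45% and 48.8% of 11979 genes. Of those 41 genes, 12 passed only through their 5dw libraries (Cdk1, Cdc25c, Aurka, Aurkb, Bub1, Bub1b, Birc5, Cenpe, Prc1, Gins2, Tk1 and Ccne1) and Ccnd1 only through NS, so a count over them is no independent support. The median log2FC was 1.06 over all 46 genes and -0.08 over the whole table without the filter. Single genes are given below with the adjusted p of the filtered fit, and the 5 that stayed below the filter with that of the unfiltered one.

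The scale of the libraries bears on these counts. The median log2FC of the 11979 genes was -0.40 in WT and -0.31 in Act, and median-ratio scaling, which sets it to 0.01 in both, raised the log2FC of every one of the 46 genes. After this scaling 37 of the 41 genes were higher in WT 5dw and 2 lower, against 23.4% and 21.2% of all genes, and Mcm4 and Pcna, slightly negative on RPKM, became positive (0.37 and 0.27).

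The groups were also compared without a model. In 28 of the 46 genes (60.9%) every 5dw library, WT or Act, lay above every NS library, and in 2 (4.35%) every 5dw library lay below, with overlap in the other 16. For all genes above 0 these shares were 5.34% and 22.5%. The median gene of the 46 had 1.05 RPKM in NS and 2.94 in 5dw, while the median of the genes tested went from 4.89 to 3.51. In NS 20 of the 46 averaged under 1 RPKM, and in 5dw 7 did.

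**Figure D2:**
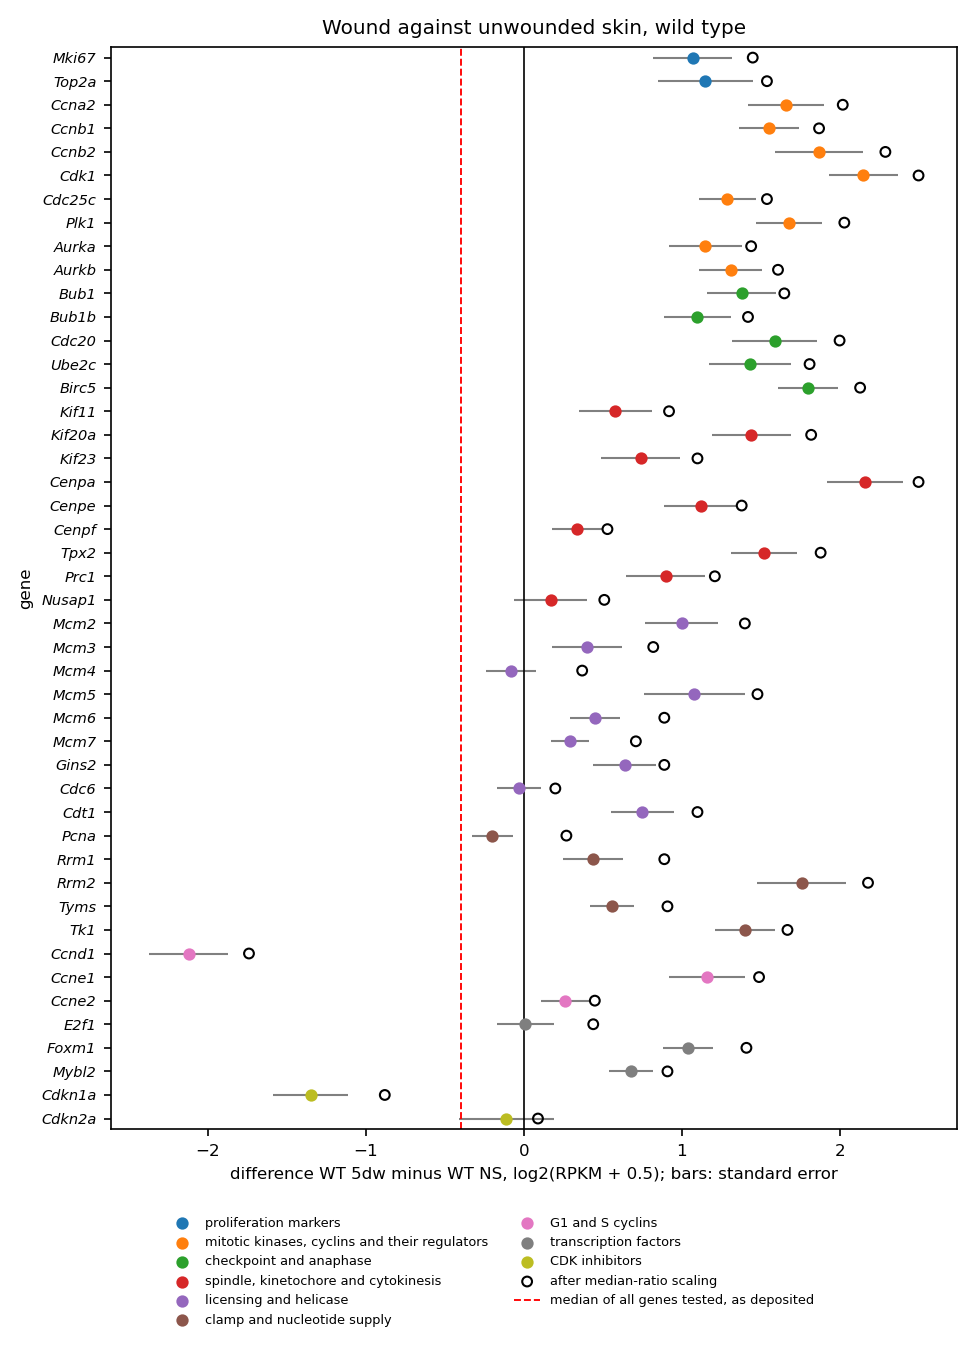
Log2FC of 5dw against NS on the scale log2(RPKM + 0.5) for each of the 46 genes in WT mice, with standard errors, ordered by role. Open circles show the same WT differences after median-ratio scaling, and a dashed line the median of all genes tested. Cenpa and Cdk1 have the highest values in WT, 2.16 and 2.15, and Ccnd1 the lowest, -2.12.

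The proliferation markers rose in WT wounds. Mki67 stood at 1.03, 2.01 and 1.56 RPKM in WT NS, 1.06, 2.55 and 2.13 in Act NS, 4.4, 2.99 and 3.76 in WT 5dw with 3.28 and 3.18 in Act 5dw. The antigen Ki-67 coats mitotic chromosomes and is absent from resting cells. The RPKM of Top2a was 1.13, 2.67 and 1.71 in WT NS, 1.09, 2.84 and 2.61 in Act NS, 5.79, 3.46 and 4.48 in WT 5dw with 4.03 and 4.05 in Act 5dw. Topoisomerase II alpha untangles sister chromatids. For both genes the lowest 5dw library exceeded the highest NS library. Mki67 was higher in WT 5dw by a log2FC of 1.07 ± 0.25 (SE, limma adjusted p = 0.00427), 2.10-fold, and Top2a by 1.15 ± 0.30 (SE, limma adjusted p = 0.00802), 2.21-fold. In Act mice neither passed the threshold, with 0.68 ± 0.28 (SE, limma adjusted p = 0.0678) for Mki67 and 0.83 ± 0.34 (SE, limma adjusted p = 0.0655) for Top2a. Both passed there with the replicate block (limma adjusted p = 0.0423 and 0.042) and after median-ratio scaling (limma adjusted p = 0.00992 and 0.0143).

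All 8 mitotic kinases, cyclins and regulators of Cdk1 rose in WT 5dw with and without the filter, by 1.15 (Aurka) to 2.15 (Cdk1) on the log2 scale, and none of them overlapped between NS and 5dw. Cdk1 reached 0.541, 0.996 and 0.86 RPKM in WT NS and 0.522, 1.08 and 0.96 in Act NS, then 7.06, 4.38 and 4.55 in WT 5dw compared with 3.87 and 4.18 in Act 5dw. Cdk1 (chromosome 10, 69335146 to 69352938, minus strand) is the kinase that drives entry into mitosis. It was higher in WT 5dw by 2.15 ± 0.22 (SE, limma adjusted p = 2.78e-05), 4.45-fold, and in Act by 1.76 ± 0.24 (SE, limma adjusted p = 0.000298). The NS libraries held 0.522 to 1.08 RPKM and the wound libraries 3.87 to 7.06, so that the tissues were well separated. From the reads behind these values, limma-voom gave a log2FC of 2.76 for Cdk1 in WT.

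Ccnb1 had 0.479, 0.75 and 0.654 RPKM in WT NS and 0.684, 1.15 and 1.04 in Act NS, against 3.54, 2.21 and 2.73 in WT 5dw with 1.86 and 2.31 in Act 5dw. Cyclin B1 (chromosome 13, 100778650 to 100786570, minus strand) activates Cdk1 at mitotic entry, and 27.8% of its 31-base sequences also occur in other genes, among them the pseudogene Ccnb1-ps. Every wound library exceeded every NS library, with overlap between WT 5dw and Act 5dw, and its log2FC was 1.55 ± 0.19 (SE, limma adjusted p = 8.39e-05) in WT and 0.83 ± 0.21 (SE, limma adjusted p = 0.00783) in Act. Plk1 stood at 0.865, 1.02 and 0.765 RPKM in WT NS, 0.57, 1.32 and 0.772 in Act NS, 4.59, 3.74 and 3.48 in WT 5dw with 2.17 and 3.35 in Act 5dw. Plk1 (chromosome 7, 122159439 to 122169873, plus strand), the Polo kinase of spindle assembly and cytokinesis, rose by 1.68 ± 0.21 (SE, limma adjusted p = 0.000102) in WT and by 1.25 ± 0.23 (SE, limma adjusted p = 0.00171) in Act, and no wound library fell to the NS range. The remaining 5 were Ccna2 (1.66 ± 0.24, limma adjusted p = 0.000268), Ccnb2 (1.87 ± 0.28, limma adjusted p = 0.000291), the phosphatase gene Cdc25c (1.29 ± 0.18, limma adjusted p = 0.000242) and the Aurora kinase genes Aurka (1.15 ± 0.23, limma adjusted p = 0.00151) and Aurkb (1.31 ± 0.20, limma adjusted p = 0.000363) in WT. Ccnb2 was the most abundant of this group in wounds, at 9.15 to 10.4 RPKM in WT 5dw, with 6.67 and 8.76 in the Act wounds.

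All 5 genes of the checkpoint and of anaphase rose in WT 5dw too, by 1.10 (Bub1b) to 1.80 (Birc5). The RPKM of Birc5 was 0.548, 0.914 and 0.455 in WT NS, 0.455, 0.854 and 0.653 in Act NS, 4.11, 3.04 and 3.2 in WT 5dw with 2.28 and 2.63 in Act 5dw. Birc5 (chromosome 11, 117849251 to 117855743, plus strand) encodes survivin, a subunit of the chromosomal passenger complex with Aurora B. All 6 NS libraries stayed under 1 RPKM and all 5 of 5dw were above 2, with a log2FC of 1.80 ± 0.19 (SE, limma adjusted p = 3.38e-05) in WT and 1.37 ± 0.21 (SE, limma adjusted p = 0.000552) in Act. Bub1 reached 0.173, 0.567 and 0.394 RPKM in WT NS and 0.365, 0.82 and 0.53 in Act NS, then 2.2, 1.41 and 1.69 in WT 5dw compared with 1.44 and 1.51 in Act 5dw. Bub1 (chromosome 2, 127801122 to 127831865, minus strand), a kinase of the spindle checkpoint, was lowest in WT NS replicate 1 and did not overlap between the tissues. Its log2FC was 1.38 ± 0.22 (SE, limma adjusted p = 0.000425) in WT and 0.90 ± 0.24 (SE, limma adjusted p = 0.0111) in Act. Cdc20 had 1.61, 2.38 and 2.18 RPKM in WT NS and 1.48, 3.78 and 2.33 in Act NS, against 9.26, 5.42 and 7.16 in WT 5dw with 4.38 and 5.95 in Act 5dw. Cdc20 (chromosome 4, 118432901 to 118437352, minus strand) activates the anaphase-promoting complex, and shares 26.7% of its 31-base sequences with other genes. It rose by 1.59 ± 0.27 (SE, limma adjusted p = 7e-04) in WT and by 0.96 ± 0.30 (SE, limma adjusted p = 0.0239) in Act, and the Act NS library numbered 2 came closest to the wound range. Ube2c, the ubiquitin-conjugating enzyme of that complex, rose by 1.43 ± 0.26, limma adjusted p = 0.000943 in WT, and 22.8% of its exon sequence overlaps Tnnc2 on the other strand. Bub1b, which encodes BubR1, rose by 1.10 ± 0.21, limma adjusted p = 0.00126.

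**Figure D3:**
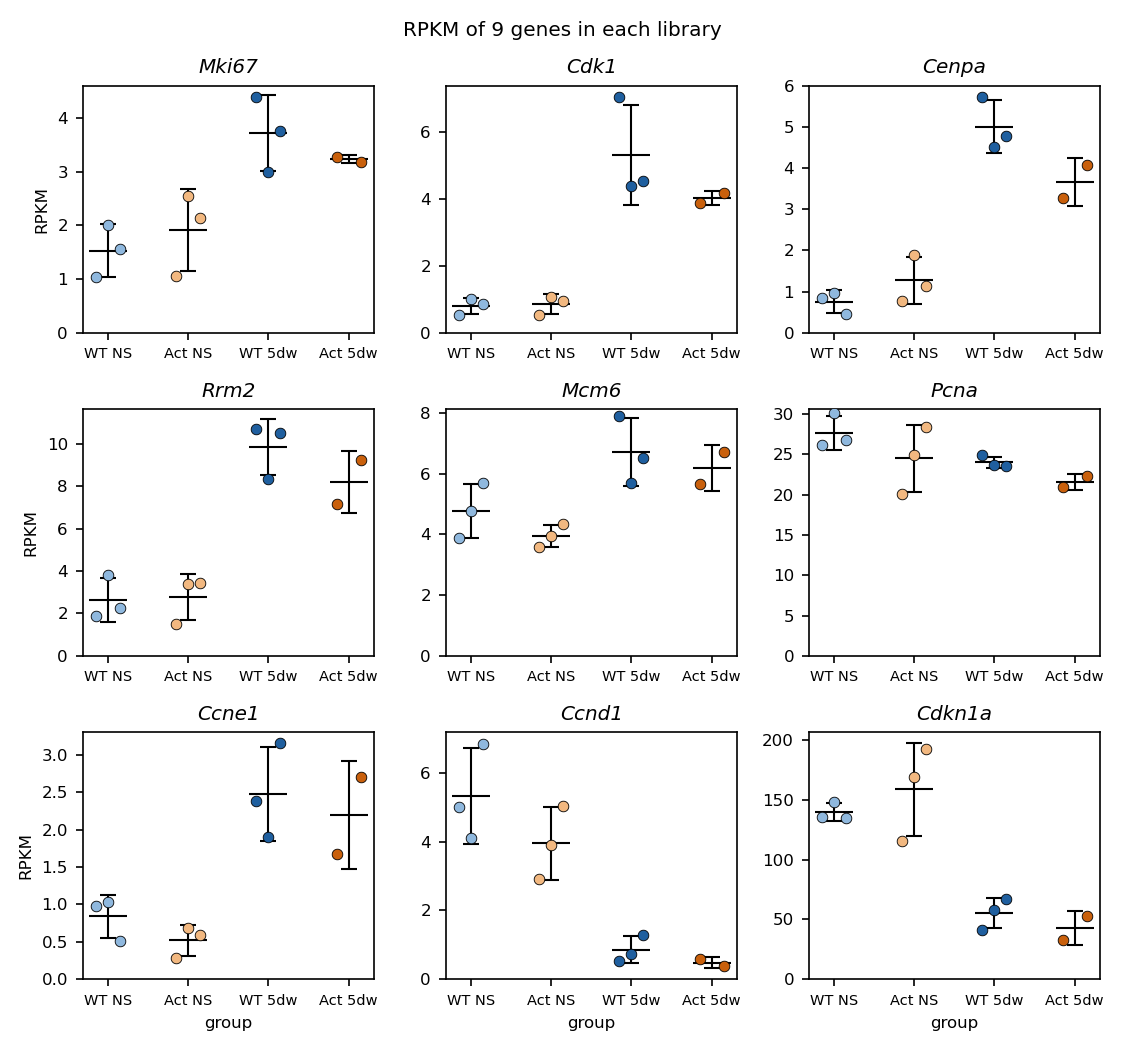
RPKM of single genes in each library, on linear axes that start at 0, with a point for each library and a bar for the group mean. Cdk1 is at 0.522 to 1.08 in NS and 3.87 to 7.06 in 5dw, and Cdkn1a at 116 to 193 in NS and 32.6 to 66.7 in 5dw.

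Genes of the spindle, kinetochore and cytokinesis covered a wider range. Of the 9, 5 rose in WT 5dw in the unfiltered fit and 7 of the 8 that passed the filter rose in the filtered one, over a range from 0.17 (Nusap1) to 2.16 (Cenpa). Cenpa stood at 0.854, 0.963 and 0.443 RPKM in WT NS, 0.767, 1.9 and 1.13 in Act NS, 5.74, 4.51 and 4.79 in WT 5dw with 3.27 and 4.08 in Act 5dw. Cenpa (chromosome 5, 30666777 to 30674830, plus strand) encodes the histone H3 variant that marks centromeres. It was higher by 2.16 ± 0.24 (SE, limma adjusted p = 4.63e-05), 4.46-fold, in WT and by 1.28 ± 0.26 (SE, limma adjusted p = 0.0028) in Act, and its NS values spread from 0.443 in WT to 1.90 in Act. The RPKM of Tpx2 was 0.67, 1.31 and 1.16 in WT NS, 1.03, 2.02 and 1.31 in Act NS, 4.72, 3.33 and 3.62 in WT 5dw with 3.1 and 3.23 in Act 5dw. Tpx2 (chromosome 2, 152847964 to 152895321, plus strand), which activates Aurora A on spindle microtubules, rose by 1.52 ± 0.21 (SE, limma adjusted p = 0.000219) in WT and by 0.94 ± 0.24 (SE, limma adjusted p = 0.00866) in Act with no overlap. Kif20a reached 1.22, 1.53 and 1.19 RPKM in WT NS and 0.991, 2.43 and 1.31 in Act NS, then 6.1, 3.35 and 4.13 in WT 5dw compared with 3.41 and 3.7 in Act 5dw. Kif20a, a kinesin of the central spindle, shares 29.3% of its exon sequence with Cdc23 on the other strand. It rose by 1.44 ± 0.25 (SE, limma adjusted p = 0.000725) in WT and by 1.03 ± 0.28 (SE, limma adjusted p = 0.0115) in Act, and the Act NS library numbered 2, at 2.43, was its highest unwounded value.

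The motor protein genes Cenpe (1.12 ± 0.23, limma adjusted p = 0.00219) and Kif23 (0.74 ± 0.25, limma adjusted p = 0.0236) and the cross-linker gene Prc1 (0.90 ± 0.25, limma adjusted p = 0.00983) rose in WT in the filtered fit. Kif11, the kinesin that pushes spindle poles apart, stood at the threshold with 0.58 ± 0.23, limma adjusted p = 0.0479, and its limma adjusted p was 0.0504 with the replicate block, so its call was lost. Kif11, Kif23, Cenpf and Nusap1 overlapped between NS and 5dw over the 11 libraries. The large kinetochore protein gene Cenpf had a log2FC of 0.34 ± 0.16 (limma adjusted p = 0.146), at 0.173 to 0.468 RPKM in NS and 0.307 to 0.617 in 5dw. After median-ratio scaling without a filter Cenpf was called higher (0.53, limma adjusted p = 0.0319). Nusap1, which bundles spindle microtubules, differed by 0.17 ± 0.23, limma adjusted p = 0.529, within the spread between libraries.

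For the 9 genes that license origins and unwind DNA the median log2FC in WT was 0.45, compared with 1.60 for the 8 kinases and cyclins, 1.43 for the 5 checkpoint genes and 0.90 for the 9 spindle genes. Of the 9, 4 rose in WT 5dw without the filter and 5 of 8 with it, from -0.08 (Mcm4) to 1.08 (Mcm5), and only Cdt1 had no overlap between the tissues over all 11 libraries. Mcm2 had 1.45, 1.61 and 2.9 RPKM in WT NS and 1.37, 1.94 and 1.89 in Act NS, against 5.19, 3.62 and 4.25 in WT 5dw with 2.66 and 4.17 in Act 5dw. Mcm2 (chromosome 6, 88883474 to 88898780, minus strand) is a subunit of the helicase ring. All WT 5dw libraries exceeded the WT NS libraries, whereas Act 5dw replicate 1 lay under WT NS replicate 3, and the log2FC was 1.00 ± 0.23 (SE, limma adjusted p = 0.00397) in WT and 0.79 ± 0.26 (SE, limma adjusted p = 0.0282) in Act. Cdt1 stood at 1.2, 0.637 and 1.26 RPKM in WT NS, 0.725, 1.02 and 1.17 in Act NS, 2.07, 1.79 and 2.24 in WT 5dw with 1.27 and 1.75 in Act 5dw. Cdt1 (chromosome 8, 122568015 to 122573554, plus strand) loads the helicase onto origins. Its lowest wound library and its highest NS library were 1.27 and 1.26 RPKM, and its log2FC was 0.75 ± 0.20 (SE, limma adjusted p = 0.00737) in WT and 0.45 ± 0.22 (SE, limma adjusted p = 0.117) in Act.

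The RPKM of Mcm5 was 1.29, 1.72 and 2.63 in WT NS, 0.855, 2.1 and 1.98 in Act NS, 5.51, 3.33 and 4.58 in WT 5dw with 2.33 and 4.91 in Act 5dw. Mcm5 (chromosome 8, 75109569 to 75128439, plus strand), another subunit of the ring, overlapped in the same way as Mcm2, with Act 5dw replicate 1 within the NS range. Its log2FC was 1.08 ± 0.32 (SE, limma adjusted p = 0.0141) in WT and 0.93 ± 0.36 (SE, limma adjusted p = 0.0543) in Act. Mcm6 (0.45 ± 0.16, limma adjusted p = 0.0286) and Gins2 (0.64 ± 0.20, limma adjusted p = 0.018) were also called higher in WT, although 67.3% of the exon sequence of Gins2 lies under Gse1 on the other strand. Mcm3 (0.40 ± 0.22, limma adjusted p = 0.144), Mcm7 (0.29 ± 0.12, limma adjusted p = 0.0619) and Mcm4 (-0.08 ± 0.16, limma adjusted p = 0.672) did not pass, and neither did the loader gene Cdc6, which stayed at 0.308 to 0.615 RPKM in every library. Mcm7 shares 33.4% of its 31-base sequences with other genes. After median-ratio scaling the 8 genes that passed the filter were all called higher in WT 5dw, with a median of 0.89. Mcm4 was the most abundant helicase subunit, at 5.71 to 8.87 RPKM in NS and 6.90 to 8.25 in 5dw.

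Of the 5 genes of the clamp and of nucleotide supply, Tk1, Rrm2 and Tyms rose in WT 5dw with and without the filter. Tk1 reached 0.29, 0.32 and 0.401 RPKM in WT NS and 0.185, 0.439 and 0.293 in Act NS, then 2.19, 1.21 and 1.83 in WT 5dw compared with 1.21 and 1.49 in Act 5dw. Thymidine kinase 1 (chromosome 11, 117815526 to 117826092, minus strand) salvages thymidine in S phase. Its log2FC was 1.40 ± 0.19 (SE, limma adjusted p = 0.000195) in WT and 1.21 ± 0.22 (SE, limma adjusted p = 0.00134) in Act, without overlap, and limma-voom on the reads gave 2.31 in WT, 1.67 after scaling of the RPKM values. Rrm2 had 1.86, 3.81 and 2.26 RPKM in WT NS and 1.52, 3.4 and 3.42 in Act NS, against 10.7, 8.37 and 10.5 in WT 5dw with 7.19 and 9.24 in Act 5dw. Rrm2 (chromosome 12, 24708241 to 24714146, plus strand) is the regulated subunit of ribonucleotide reductase. Every wound library was above 7 RPKM and every NS library under 4, and the log2FC was 1.76 ± 0.28 (SE, limma adjusted p = 0.000444) in WT and 1.46 ± 0.31 (SE, limma adjusted p = 0.00342) in Act. Tyms stood at 0.931, 1.09 and 1.1 RPKM in WT NS, 0.858, 1.02 and 1.14 in Act NS, 1.95, 1.5 and 1.9 in WT 5dw with 1.34 and 1.6 in Act 5dw. Thymidylate synthase (chromosome 5, 30058202 to 30073617, minus strand) rose by 0.56 ± 0.14 (SE, limma adjusted p = 0.00493) in WT without overlap between the tissues. In Act its log2FC was 0.39 ± 0.15 (SE, limma adjusted p = 0.0549), which did not pass.

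Rrm1, the constant subunit of the reductase, differed by 0.44 ± 0.19, limma adjusted p = 0.0636 in WT, where the replicate block gave a limma adjusted p of 0.0334, and by 0.68 ± 0.21, limma adjusted p = 0.0209 in Act, where it was called without the block. Pcna was the most abundant gene of the 14 replication genes, at 20.1 to 30.1 RPKM in NS and 20.9 to 24.9 in 5dw. Its log2FC was -0.20 ± 0.13, limma adjusted p = 0.227 in WT and -0.17 ± 0.15, limma adjusted p = 0.388 in Act and turned positive with median-ratio scaling (0.27 and 0.20), neither past the threshold, and it shares 23.3% of its 31-base sequences with the pseudogene Pcna-ps2 and another gene.

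Of the 3 cyclins of G1 and S phase, Ccnd1 fell, Ccne1 rose and Ccne2 was not called in WT 5dw. The RPKM of Ccnd1 was 5.01, 4.1 and 6.85 in WT NS, 2.91, 3.9 and 5.05 in Act NS, 0.535, 0.729 and 1.29 in WT 5dw with 0.59 and 0.373 in Act 5dw. Cyclin D1 (chromosome 7, 144929931 to 144939925, minus strand) couples growth factor signals to entry into the cycle. All wound libraries were below all NS libraries, and the log2FC was -2.12 ± 0.25 (SE, limma adjusted p = 6.9e-05) in WT, 4.34-fold lower, and -2.16 ± 0.28 (SE, limma adjusted p = 0.000184) in Act. Ccnd1 stayed lower after median-ratio scaling (-1.74 in WT), and 23.4% of its exon sequence overlaps LTO1 on the other strand. Ccne1 reached 0.983, 1.03 and 0.506 RPKM in WT NS and 0.283, 0.686 and 0.589 in Act NS, then 2.39, 1.9 and 3.16 in WT 5dw compared with 1.68 and 2.71 in Act 5dw. Cyclin E1 (chromosome 7, 38097984 to 38107534, minus strand) drives the start of S phase with Cdk2. It was higher in every wound library than in any NS library, by 1.16 ± 0.24 (SE, limma adjusted p = 0.00215) in WT and by 1.40 ± 0.27 (SE, limma adjusted p = 0.00202) in Act. Ccne2 had 0.125, 0.307 and 0.433 RPKM in WT NS and 0.227, 0.226 and 0.224 in Act NS, against 0.577, 0.332 and 0.398 in WT 5dw with 0.39 and 0.38 in Act 5dw. Cyclin E2 stayed below the filter, its libraries overlapped, and its log2FC of 0.26 ± 0.15 in WT had a limma adjusted p of 0.242. After median-ratio scaling without a filter Ccne2 was called higher (0.45, limma adjusted p = 0.0443).

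Among the transcription factors, Foxm1 and Mybl2 rose and E2f1 did not. Foxm1 stood at 1.12, 1.32 and 1.26 RPKM in WT NS, 0.944, 1.51 and 1.5 in Act NS, 3.58, 2.57 and 3.15 in WT 5dw with 2.16 and 2.72 in Act 5dw. Foxm1 (chromosome 6, 128362967 to 128376146, plus strand) activates genes of G2 and mitosis. It did not overlap between the tissues and rose by 1.04 ± 0.16 (SE, limma adjusted p = 0.000432) in WT and by 0.70 ± 0.18 (SE, limma adjusted p = 0.00997) in Act. The RPKM of Mybl2 was 0.265, 0.289 and 0.363 in WT NS, 0.171, 0.314 and 0.338 in Act NS, 0.897, 0.713 and 0.757 in WT 5dw with 0.589 and 0.927 in Act 5dw. Mybl2 (chromosome 2, 163054687 to 163084688, plus strand) encodes B-Myb, which works with Foxm1, and shares 21.1% of its 31-base sequences with other genes. It was below 1 RPKM throughout but separated the tissues, with a log2FC of 0.68 ± 0.14 in WT (limma adjusted p = 0.006 in the unfiltered fit) and 0.69 ± 0.16 in Act (limma adjusted p = 0.0126). E2f1 reached 5.83, 3.5 and 4.84 RPKM in WT NS and 3.62, 5.05 and 4.26 in Act NS, then 5.07, 4.35 and 4.65 in WT 5dw compared with 3.92 and 4.91 in Act 5dw. E2f1 (chromosome 2, 154559407 to 154569892, minus strand), the E2F factor that activates S phase genes, was more abundant than either in NS, and its log2FC of 0.01 ± 0.18 (SE, limma adjusted p = 0.955) in WT lay within the spread of the libraries. After median-ratio scaling its log2FC in WT was 0.44 with a limma adjusted p of 0.0434.

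The inhibitor Cdkn1a was the most abundant of the 46 genes in every library. Cdkn1a had 136, 148 and 135 RPKM in WT NS and 116, 169 and 193 in Act NS, against 41.5, 57.9 and 66.7 in WT 5dw with 32.6 and 52.6 in Act 5dw. Cdkn1a (chromosome 17, 29090976 to 29100727, plus strand) encodes p21, which binds and blocks cyclin-dependent kinases. All wound libraries were below all NS libraries, and the log2FC was -1.35 ± 0.24 (SE, limma adjusted p = 0.000834) in WT, 2.56-fold lower, and -1.90 ± 0.27 (SE, limma adjusted p = 0.000336) in Act, and -0.88 and -1.53 after median-ratio scaling. Cdkn2a stood at 1.08, 0.183 and 0.287 RPKM in WT NS, 0.535, 0.212 and 0.334 in Act NS, 0.602, 0.242 and 0.33 in WT 5dw with 0.374 and 0.3 in Act 5dw. Cdkn2a (chromosome 4, 89274471 to 89294653, minus strand) encodes p16 and p19Arf. Its values overlapped, WT NS replicate 1 being the highest of all, and its log2FC of -0.11 ± 0.3 in WT had a limma adjusted p of 0.85. Most keratinocyte markers were lower in the same libraries as Ccnd1 and Cdkn1a, but Krt6a averaged 27.7 RPKM in NS and 101 in 5dw. Of these 14 markers, 10 were called lower and 1 higher in WT with the filter, against 48.8% and 9.45% of all genes. Without it 8 were lower and 1 higher, against 24.9% and 5.67%. After median-ratio scaling 8 of these markers were lower and 1 higher, against 21.2% and 23.4%. Their summed RPKM was 1270, 2030 and 2250 RPKM in WT NS, 1280, 3000 and 4670 in Act NS, and 157, 318 and 1390 in WT 5dw with 346 and 419 in Act 5dw. WT NS replicate 1 and Act NS replicate 1, with sums of 1270 and 1280 RPKM, had Cdkn1a at 136 and 116 RPKM and Ccnd1 at 5.01 and 2.91. WT 5dw replicate 3, with a sum of 1390, had Cdkn1a at 66.7 and Ccnd1 at 1.29. Both of these NS libraries stood apart on the second principal component. The part of the keratinocyte markers in the lower levels of Ccnd1 and Cdkn1a was not tested.

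In Act mice the same comparison of 5dw with NS rested on 2 wound libraries. Of the 46 genes 19 were higher and 2 lower, again Ccnd1 and Cdkn1a, in the unfiltered fit, against 5.31% and 17.5% of all genes. With the filter 25 of 41 were higher and 2 lower, against 9.04% and 36.5%, and after median-ratio scaling 33 and 2, against 20.3% and 20.4%. By role, 8 of 8 kinases and cyclins, 5 of 5 checkpoint genes, 4 of 8 spindle genes, 3 of 8 helicase genes, 3 of 5 clamp and nucleotide genes, Ccne1 and Foxm1 were called higher in the filtered fit. Genes that passed the filter only through 5dw, named above, are among them. Without the filter those role counts were 7 of 8, 2 of 5, 3 of 9, 1 of 9 and 3 of 5. Over all genes 9.04% were higher with the filter and 5.31% without it. Without Act 5dw replicate 3 fewer genes were called, among the 46 and among all genes alike. The lone wound library was then assumed to vary like the other groups, so no count is given for that fit. Without both NS libraries numbered 1, a setting chosen after the data were seen, 31 genes were higher and 2 lower in WT, against 9.53% and 50.3% of all genes, and 20 and 2 in Act, against 8.41% and 44.1%. The replicate block called 32 higher and 2 lower in WT, against 10.2% and 50.9% of all genes, and 27 and 2 in Act, against 9.75% and 38%.

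**Figure D4:**
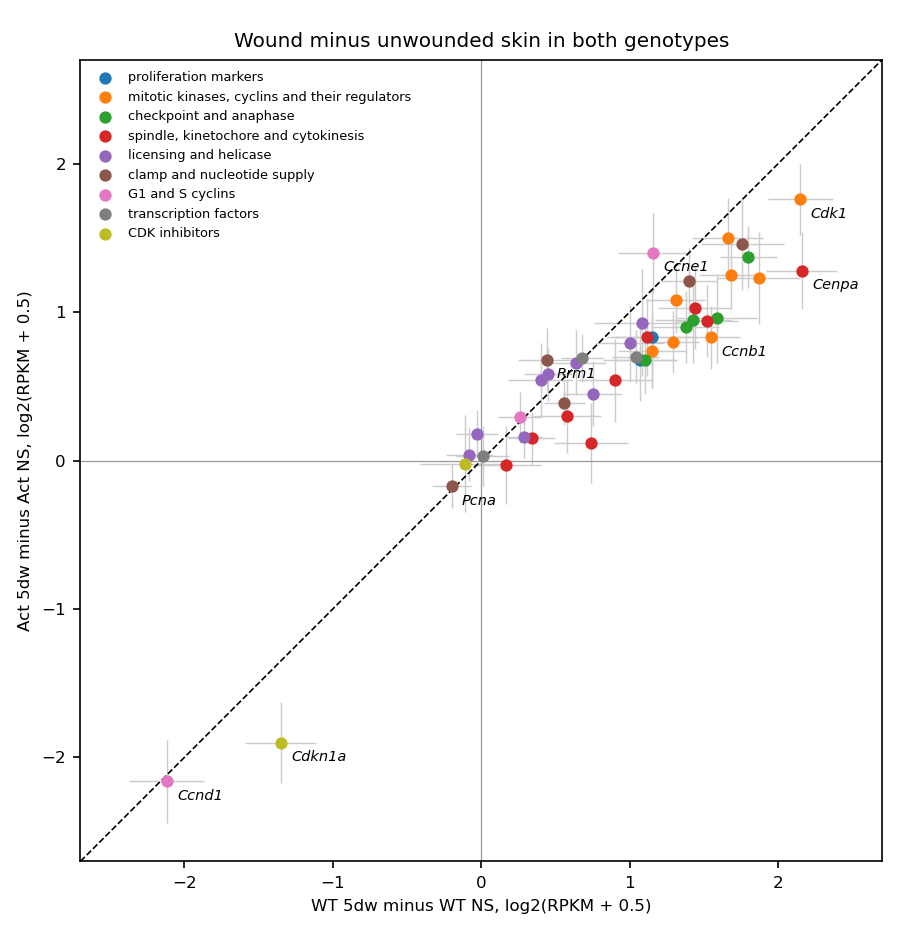
Log2FC of 5dw against NS in Act mice plotted against that in WT mice for the 46 genes, on the scale log2(RPKM + 0.5), with a line where both are equal. Most points lie under the line, 34 of 46, and Ccnd1 and Cdkn1a stand alone at the lower left.

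The effect of activin was examined in unwounded skin, in wounds and as the difference between the responses to wounding. Between Act NS and WT NS no gene of the 46 was called, none was called by limma-voom, and none had an unadjusted p under 0.05, whereas among all 11979 genes 2 were called (0.0167%) and 824 had such a p. Differences ran from -0.39 (Ccnd1) to 0.47 (Cenpa), with standard errors of 0.12 to 0.32, a spread that leaves changes of that size undetected. The lowest limma adjusted p was 0.701.

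Between Act 5dw and WT 5dw again none was called, none was called by limma-voom and none had an unadjusted p under 0.05, whereas among all genes 4 were called (0.0334%) and 386 had such a p. Of the 46 differences 44 were negative, from -0.46 (Plk1) to 0.11 (Gins2), with standard errors of 0.14 to 0.36 and a lowest limma adjusted p of 1. The median was -0.25 over the 41 genes that passed the filter and -0.04 over all genes tested. In 10 genes both Act 5dw libraries lay below all WT 5dw libraries (Ccna2, Ccnb2, Cdk1, Cdc25c, Plk1, Birc5, Cenpa, Tpx2, Cdt1 and Pcna) and in none above, whereas 9.95% and 8% of all genes above 0 did so. The genes share their libraries, so 44 differences of 1 sign are not 44 observations. Cdk1 differed by -0.34 ± 0.24 (SE, limma adjusted p = 1) and Plk1 by -0.46 ± 0.23 (SE, limma adjusted p = 1) as limma values.

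The log2FC of wounding was lower in Act than in WT in 34 of the 46 genes, Ccnd1 and Cdkn1a with their more negative values in Act included, and had the same sign in 43. Over all genes above 0 it was lower in Act in 43.1%. In the filtered fit 26 genes were called in both genotypes, 8 only in WT (Mki67, Top2a, Kif11, Kif23, Prc1, Mcm5, Cdt1 and Tyms) and Rrm1 only in Act. Over all 11979 genes, too, more were called in WT, 6978, than in Act, 5459, where the wound group had 2 libraries. With the replicate block Mki67, Top2a and Mcm5 were called in Act as well (limma adjusted p = 0.028 for Mcm5) and Gins2 no longer was (0.0508), while in WT Rrm1 was called and Kif11 was not. After median-ratio scaling Mki67, Top2a, Prc1, Mcm5, Cdt1 and Tyms were called in Act and Rrm1 in WT. The test of the difference itself, the interaction of wounding and genotype, called none of the 46 and 0% of all genes, and limma-voom called none of the 46, so that those 9 genes are not shown to differ between the genotypes. Unadjusted, 2 of the 46 had a p under 0.05, as did 400 of all 11979 genes. These were Ccnb1 (interaction -0.71 ± 0.28, unadjusted p of the limma model 0.0271) and Cenpa (-0.87 ± 0.35, unadjusted p of the limma model 0.0311), and the lowest limma adjusted p of the 46 was 0.999.

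**Figure D5:**
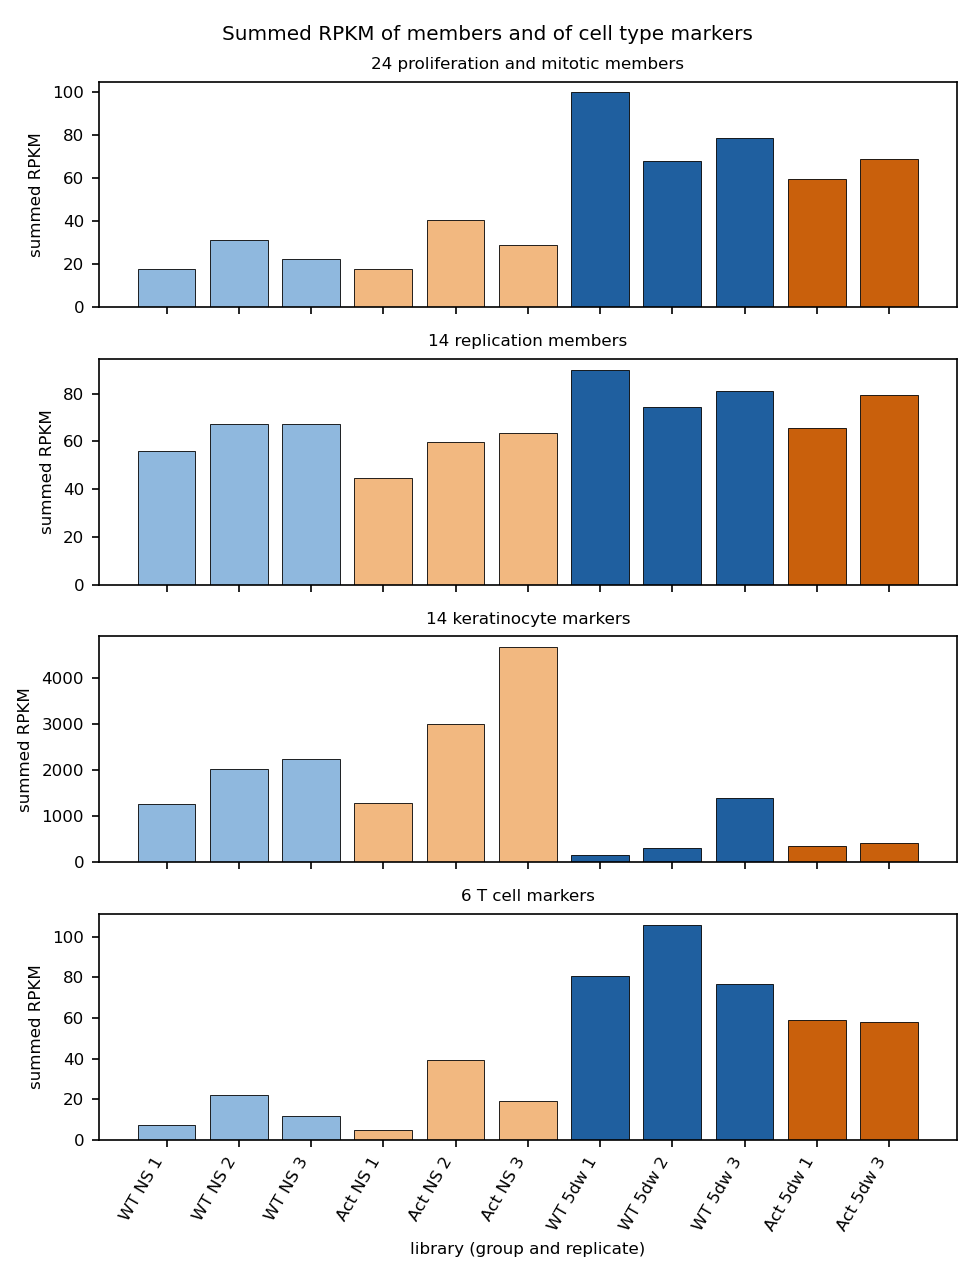
Summed RPKM of the 24 mitotic genes (Mki67 and Top2a included) and of the 14 replication genes in each library, on linear axes from 0. The mitotic sum is 17.6 to 40.6 in NS and 59.3 to 99.7 in 5dw, and the replication sum 44.7 to 67.5 in NS and 65.8 to 90 in 5dw.

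Unwounded libraries held much the same order from one mitotic gene to the next. The summed level of the 24 mitotic genes was 17.7, 31.1 and 22.5 RPKM in WT NS, 17.6, 40.6 and 29.1 in Act NS, against 99.7, 67.8 and 78.6 in WT 5dw, and the Act 5dw libraries had 59.3 and 68.6. The lowest wound library held more than any NS library, and the highest NS library was Act NS replicate 2. That library had the highest NS value in 22 of the 24 genes. WT NS replicate 1 was among the 2 lowest NS libraries in 19 of the 24 and Act NS replicate 1 in 23, and these are the libraries that stood apart on the second principal component. Act NS replicate 2 also had the highest sum of hair follicle markers, 8.95 RPKM against 1.01 to 2.98 in the other NS libraries, and of the T cell list, 39.4 against 4.80 to 22.3. The latter sum, most of it Cd3e and Trbc2, put the 6 NS libraries in the same order as the mitotic sum. Cd3d, Cd3g, Trac and Cd2 averaged 0.0491 to 0.109 RPKM in NS and Ptprc 0.027. The keratinocyte sum was lowest in the NS libraries numbered 1, at 1270 and 1280 RPKM against 2030 to 4670 in the others. Its highest value was in Act NS replicate 3. The part of any of these lists in the mitotic level was not tested. The replication sum was 55.9, 67.2 and 67.5 in WT NS, 44.7, 59.8 and 63.4 in Act NS, with 90, 74.3 and 81.2 in WT 5dw, the Act 5dw libraries holding 65.8 and 79.3, and Act 5dw replicate 1 lay within the NS range.

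Other genes of the same pathways were read from lists written alongside the 46. Of 72 further genes of mitosis and cytokinesis, 55 rose and 1 fell in WT 5dw in the unfiltered fit, with a median log2FC of 0.83. In Act 24 rose and 1 fell. Over all genes these shares were 5.67% and 24.9% in WT and 5.31% and 17.5% in Act, also for the lists that follow. After median-ratio scaling without a filter 67 rose and 0 fell in WT, and 53 and 1 in Act, against 12% and 10.9% of all genes in WT and 10.9% and 10.1% in Act. Spc24 (1.49 ± 0.18, limma adjusted p = 7.67e-05) and Cenpn (1.29 ± 0.18, limma adjusted p = 0.000191), both of the kinetochore, and Tacc3 (1.37 ± 0.20, limma adjusted p = 0.000301), of the spindle, had the lowest adjusted p. The RPKM of Spc24 was 0.588, 0.874 and 1.05 in WT NS, 0.62, 0.954 and 1.13 in Act NS, 3.34, 2.91 and 3.42 in WT 5dw with 2.13 and 2.66 in Act 5dw. No wound library of Spc24 was near its NS range. The gene that fell was Pttg1, which encodes securin, an inhibitor of separase that is degraded at anaphase. Pttg1 reached 6.76, 6.41 and 5.64 RPKM in WT NS and 5.37, 5.89 and 5.75 in Act NS, then 4.07, 3.61 and 3.62 in WT 5dw compared with 3.21 and 2.28 in Act 5dw. Its wound libraries were all below its NS libraries, by -0.66 ± 0.13 (SE, limma adjusted p = 0.00142) in WT and -0.94 ± 0.14 (SE, limma adjusted p = 0.000539) in Act. After median-ratio scaling the log2FC of Pttg1 was -0.23 in WT, where its call was lost (limma adjusted p = 0.162), and -0.62 in Act (limma adjusted p = 0.00596).

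Of 53 further genes of DNA replication and repair, 13 rose and 3 fell in WT 5dw, with a median of 0.14, and 10 rose and 1 fell in Act. Over all genes 5.67% rose and 24.9% fell in WT, and 5.31% and 17.5% in Act. Cdc45 (1.15 ± 0.17, limma adjusted p = 0.000309), a partner of the MCM ring, Asf1b (1.34 ± 0.22, limma adjusted p = 0.000544), a histone chaperone, and Gmnn (1.09 ± 0.22, limma adjusted p = 0.00174), which encodes the Cdt1 inhibitor geminin, led those that rose. Cdc45 had 0.968, 1.33 and 1.46 RPKM in WT NS and 0.891, 1.35 and 1.43 in Act NS, against 3.98, 3.12 and 3.07 in WT 5dw with 2.73 and 3.38 in Act 5dw. Its values did not overlap between the tissues. Timeless, of the replication fork protection complex, was lower by -0.83 ± 0.18 (SE, limma adjusted p = 0.00307) in WT, and by -0.48 after median-ratio scaling (limma adjusted p = 0.0471). Orc4 and Pold3 were also called lower in the filtered fit (-0.42 ± 0.13, limma adjusted p = 0.0165, and -0.35 ± 0.11, limma adjusted p = 0.0195), but Orc4 became -0.01 and Pold3 0.04 with median-ratio scaling, and both were positive with quantile normalization. After median-ratio scaling 31 of the 53 were called higher and 0 lower in WT in the unfiltered fit, against 12% and 10.9% of all genes.

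Of 34 further genes of G1, the RB and E2F families and kinase inhibitors, 4 rose and 10 fell in WT 5dw, and 4 and 10 in Act. Over all genes 5.67% rose and 24.9% fell in WT, and 5.31% and 17.5% in Act. After median-ratio scaling, without a filter as before, the balance turned to 12 higher and 4 lower in WT and 8 and 3 in Act. The shares of all genes were then 12% and 10.9% in WT and 10.9% and 10.1% in Act. Rb1, which encodes the retinoblastoma protein, was lower by -1.42 ± 0.15 (SE, limma adjusted p = 3.32e-05) in WT and -1.37 ± 0.17 (SE, limma adjusted p = 0.000124) in Act. Rb1 stood at 3.33, 4.65 and 3.71 RPKM in WT NS, 3.68, 4.61 and 4.68 in Act NS, 1.11, 0.983 and 1.3 in WT 5dw with 1.49 and 1.23 in Act 5dw. The NS and 5dw libraries were far apart. Cdkn1b, which encodes the inhibitor p27, fell by 0.98 ± 0.12 (limma adjusted p = 9.59e-05) in WT and 0.54 ± 0.13 (limma adjusted p = 0.00761) in Act, and the repressor gene E2f6 by 1.11 ± 0.15 (limma adjusted p = 0.000157) and 0.74 ± 0.17 (limma adjusted p = 0.00447). After median-ratio scaling Cdkn1b stood at -0.53 in WT (limma adjusted p = 0.0122) and -0.20 in Act, where its call was lost (limma adjusted p = 0.353), and E2f6 at -0.69 and -0.42 (limma adjusted p = 0.0021 and 0.0444). Cdk4, the partner of cyclin D, was higher, by 0.47 ± 0.14 (SE, limma adjusted p = 0.013) in WT and 0.61 ± 0.15 (SE, limma adjusted p = 0.00771) in Act. The RPKM of Cdk4 was 24.8, 23.5 and 29.4 in WT NS, 20.9, 22.3 and 24.4 in Act NS, 39.6, 33.4 and 34.7 in WT 5dw with 31.2 and 38.4 in Act 5dw. Its wound libraries lay above all NS libraries, opposite to Ccnd1. Chek2 (0.74 ± 0.15, limma adjusted p = 0.00189) and Cdkn2c (0.45 ± 0.13, limma adjusted p = 0.0109) were also higher in WT.

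Replication-dependent histone genes, transcribed in S phase, were read last. Their mRNAs mostly lack a poly-A tail, so poly-A libraries catch them incompletely. Of 70 such rows of the table, 33 rose in WT 5dw in the unfiltered fit and 22 in Act, with median log2FC of 0.62 and 0.53. Over all genes 5.67% rose in WT and 5.31% in Act. Hist1h3d reached 0.354, 0.383 and 0.661 RPKM in WT NS and 0.299, 0.371 and 0.389 in Act NS, then 3.42, 4.47 and 4.56 in WT 5dw compared with 2.26 and 3.14 in Act 5dw. Hist1h3d rose by 2.27 ± 0.17 (SE, limma adjusted p = 4.18e-06) in WT and 1.90 ± 0.19 (SE, limma adjusted p = 4.26e-05) in Act, and every wound library was above 2 RPKM with every NS library under 1. Hist1h2bq (1.99 ± 0.18, limma adjusted p = 1.2e-05) and the row Hist2h2bb_1 (1.74 ± 0.16, limma adjusted p = 1.54e-05) followed in WT.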

How the data were processed

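Poly-A RNA of sorted fibroblasts was sequenced as single reads with a stranded kit. The authors aligned reads to GRCm38 in CLC Genomics Workbench and deposited RPKM values for 47643 symbols in 11 libraries. Whether counting used strand, and how reads with several matches were treated, was not given in the sources used here. The study tested counts with the edgeR exact test, which needs counts and was not run here.

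Values were log2(RPKM + 0.5) for the 11979 genes that reached 1 RPKM or more in 2 or more libraries. They were fitted with limma-trend (limma 3.58.1, R 4.3.3), with 4 group means over the 11 libraries, 7 residual degrees of freedom (median prior 3.89). Adjustment within each comparison followed Benjamini and Hochberg. An exact permutation test of 3 libraries against 3 cannot go below 0.1. Libraries are pools of 3 animals, and no source ties a number to particular animals, so p-values measure the spread between pools.

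Mapped totals of 18649321 to 39702138 reads were recovered from the RPKM steps (whole reads within 0.03 for 25519 of 26465 genes, including all 46), and these reads were used in limma-voom only. Depth differed between groups, with 38740404 to 39702138 reads in WT 5dw and 18649321 to 29718956 in the NS libraries. The Act 5dw libraries had 20531292 and 25626301. The part of depth in the comparisons was not tested. The scripts were tested on simulated data.

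Libraries with the same replicate number deviated together in WT NS and Act NS (correlations 0.554, 0.423 and 0.334) and in WT NS and WT 5dw (0.188, 0.12 and 0.109), so a fit with the number as a block is given where it changes a call among the 46. Coordinates and shared sequence are from the GENCODE annotation of GRCm38. The 46 genes and all lists were chosen with earlier results of these data known. Values in every library are given for Mki67, Top2a, Cdk1, Ccnd1, Cdkn1a and Cdkn2a and for the 3 genes of each role with the lowest adjusted p in WT, and from each list of other genes the 3 with the lowest adjusted p in each direction are named. Other tests used pseudocounts of 0.1 and 1, no filter or one of 5 RPKM, other scalings, weights, fits of only the groups compared, and each library left out in turn.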

Additional observations from a re-analysis of the deposited data

How the results depend on the processing

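The direction of every mitotic gene in WT 5dw against WT NS held under all alternatives run, and the number called among the 46 stayed between 29 (without WT 5dw replicate 1) and 35 with any 1 library left out, and at 6 with the filter of 5 RPKM, which leaves 10 of the genes. In Act the number was 12 (without Act 5dw replicate 3) to 29, and 7 with that filter. Over all genes the filter of 5 RPKM called 3771 in WT and 3104 in Act, because fewer genes are tested, and leaving out a library called 5791 to 7355 in WT and 3509 to 5874 in Act. The filter of 5 RPKM left 6596 genes in all. The 6 of 10 in WT thus stood beside 3771 of 6596, and the 7 of 10 in Act beside 3104 of 6596. With 10 genes left and both directions counted together, that filter cannot tell whether the 46 were called more often than all genes. The replicate block called 34 of the 46 in WT and 29 in Act, with the shares of all genes given above. In WT it changed Kif11 and Rrm1 alone among the 46, as given above. The Act 5dw libraries are not shown to pair with Act NS (2 pairs, correlations 0.0187 and 0.143), and there the block gave limma adjusted p of 0.0423 for Mki67, 0.042 for Top2a, 0.028 for Mcm5 and 0.0508 for Gins2.

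None of the 46 genes was called between genotypes or in the interaction under any alternative, with limma or limma-voom. Over all genes the count for Act NS against WT NS, 2, was 9 without a filter, 1 with the filter of 5 RPKM, 4 without a trend, 4 with array weights, 0 with only the groups compared, 1 with limma-voom, and 0 to 7 with a library left out. For Act 5dw against WT 5dw, 4, it was 18 without a filter, 2 with median-ratio scaling, with quantile normalization and with limma-voom, and 0 to 4 with a library left out. For the interaction, 0, it was 10 without a filter, 1 with array weights and 0 to 2 with a library left out. Of the settings added after the data were seen, median-ratio scaling without a filter gave 8, 27 and 11 for these comparisons, leaving out both NS libraries numbered 1 gave 11 and 2 for the first and last, and the same with scaling 5 for the first. The cause of these shifts was not tested.

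Signs turned in genes near 0 and in Orc4 and Pold3, which had been called lower in WT. In WT, median-ratio scaling, quantile normalization, that scaling without a filter, and that scaling without both NS libraries numbered 1 gave Mcm4 0.37, 0.32, 0.37 and 0.24, Pcna 0.27, 0.04, 0.27 and 0.25, and Pold3 0.04, 0.14, 0.04 and 0.07. For Cdc6 the first 2 and the last gave 0.20, 0.30 and 0.14, for Cdkn2a 0.09, 0.19 and 0.44, with 0.26 without both NS libraries numbered 1 on RPKM. Orc4 turned to 0.06 with quantile normalization and E2f1 to -0.02 with array weights. In Act, the same 4 settings gave Nusap1 0.25, 0.39, 0.25 and 0.10 and Pcna 0.20, 0.04, 0.20 and 0.14. For Cdkn2a in Act the first 2 and the last gave 0.12, 0.21 and 0.29. Array weights gave Kif23 -0.14, Mcm4 -0.01, E2f1 -0.11 and Cdkn2a 0.06, leaving out both NS libraries numbered 1 gave Kif23 -0.19, Mcm4 -0.10, E2f1 -0.07 and Cdkn2a 0.12, and the replicate block Nusap1 0.05 and E2f1 -0.01. The interaction of Ccnd1 was 0.05 with a pseudocount of 1.

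With 1 library left out in turn, values that crossed 0 ran in WT from -0.22 to 0.01 for Mcm4, -0.10 to 0.06 for Cdc6, -0.17 to 0.16 for E2f1 and -0.34 to 0.26 for Cdkn2a. In Act they ran from -0.19 to 0.29 for Kif23, -0.23 to 0.11 for Nusap1, -0.10 to 0.15 for Mcm4, -0.01 to 0.32 for Mcm7, -0.11 to 0.18 for E2f1 and -0.15 to 0.12 for Cdkn2a. Between genotypes, where every alternative was recomputed for Mki67, Top2a, Cdk1, Ccnb1, Cenpa, Ccnd1 and Cdkn1a, they ran from -0.06 to 0.51 for Top2a and -0.10 to 0.24 for Cdk1 in NS, -0.30 to 0.03 for Top2a in 5dw and -0.23 to 0.18 for Ccnd1 in the interaction. Among the 46 genes such values crossed 0 for 27 between genotypes in NS, 18 in 5dw and 14 in the interaction, and in 5dw Plk1 ran from -0.73 to -0.20 and Gins2 from -0.04 to 0.29. Over the 140 differences recomputed (the 46 genes in WT and in Act, the named genes of other lists in WT and those 7 between genotypes) and all other alternatives, 1675 values kept direction and call, 64 newly passed, 51 no longer passed and 43 turned, and with a library left out these numbers were 1442, 8, 62 and 28.

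With the windows shortened to 150 bases before the start, 1.91% of all genes held an E2F match and 13.7% CHR, while the shares of the mitotic genes were as before and CHR in the replication genes was 8.33%. Depth limits the low genes, since the 46 genes rested on 4 to 9838 reads per library.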

Other observations

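Genes that p53 activates, of which Cdkn1a is the best known, did not all follow it. In a list of 18, Trp53 itself included, 1 rose and 4 fell in WT 5dw with the filter, where 9.45% and 48.8% of all genes did, and the median log2FC was 0.04 in WT and -0.22 in Act. In Act 2 rose and 4 fell, where 9.04% and 36.5% of all genes did. After median-ratio scaling 7 were higher and 3 lower in WT, with a median of 0.47, against 23.4% and 21.2% of all genes, and 4 and 3 in Act, against 20.3% and 20.4%. Plk2, a Polo-like kinase outside mitosis, was higher by 1.44 ± 0.27 in WT (limma adjusted p = 0.00116) and by 1.12 ± 0.30 in Act (limma adjusted p = 0.0113), with 27.8, 48.5 and 30.1 RPKM in WT NS, 27.9, 46.4 and 61.8 in Act NS, against 93.1, 95.7 and 94 in WT 5dw with 93.8 and 94.8 in Act 5dw. Its 5 wound libraries lay within 3 RPKM of each other and above all NS libraries. Sesn1 (-1.15 ± 0.17, limma adjusted p = 0.000334) and Trp53 (-0.83 ± 0.13, limma adjusted p = 0.00041) were lower in WT (-0.72 and -0.37 after that scaling, limma adjusted p = 0.0113 and 0.022), and so was Perp (-2.92 ± 0.70, limma adjusted p = 0.0048), which is also one of the 14 keratinocyte markers and moved with their sum.

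The stress genes that tissue dissociation can induce were read as a check, since NS and wounds were digested in the same way. Of 13, 1 rose and 5 fell in WT 5dw with the filter, and 1 and 2 in Act, against 9.45% and 48.8% of all genes in WT and 9.04% and 36.5% in Act. After median-ratio scaling 3 were higher and 0 lower in each genotype, where 23.4% and 21.2% of all genes in WT and 20.3% and 20.4% in Act were. Ier3 rose by 1.85 ± 0.19 in WT (limma adjusted p = 3.48e-05), from 181 to 214 RPKM in WT NS to 648 to 810 in WT 5dw. The heat shock genes Hspa1a (-1.21 ± 0.33, limma adjusted p = 0.00899) and Hspa1b (-1.31 ± 0.39, limma adjusted p = 0.0147) and the AP-1 gene Junb (-0.73 ± 0.22, limma adjusted p = 0.0163) were lower in WT on RPKM, and all 3 calls were lost after that scaling (-0.74, -0.83 and -0.25, with limma adjusted p = 0.106, 0.12 and 0.396). Their part in the levels of Cdkn1a and Ccnd1 was not tested.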
